A study of Mus musculus with 6 samples.

Results

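The 50 genes described here act in the G2 phase of the cell cycle and in mitosis. They were taken by symbol from a list of mitotic and G2/M genes, listed for their function, and all 50 were found among the 54532 rows of the deposited expression table. Their RNA was measured by sequencing in the mouse line MC3T3-E1, which consists of pre-osteoblasts derived from newborn skull bone. The series concerned glucocorticoid-driven apoptosis of osteoblasts. The cells were kept for 12 hours under normal conditions (control) or with a glucocorticoid (GC), and 3 libraries were made of each group. The labels name neither the glucocorticoid, its dose nor the vehicle of the controls, the groups differ by treatment alone as far as they say, and all libraries come from 1 cell line. In bulk RNA, fewer dividing cells and less RNA per dividing cell cannot be told apart.

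Cells enter mitosis when cyclin B binds the kinase CDK1 and CDC25 phosphatases remove its inhibitory phosphates. Chromosomes are then compacted by condensin and topoisomerase II and attached to spindle microtubules at kinetochores. They are held by the spindle checkpoint until the anaphase-promoting complex (APC/C) marks cyclin B and securin for destruction. Most of these genes are transcribed in waves late in the cycle, through the factors MYBL2 and FOXM1 and through promoter elements known as the CHR (cell cycle genes homology region) and the CCAAT box, and their RNA is used as a sign of cycling cells.

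These promoter elements are shown first because most of the genes with a promoter window carried their letters. RefSeq promoter windows (GRCm38.p6, 300 bases from 250 before to 50 after the start) were matched for 41 of the 50 genes. The letters of the CHR, TTTGAA or TTCGAA on either strand (TTTGAA reads TTCAAA on the other), were present in 32 of 41, or 78.0%, against 21.7% of the 27025 genes in the promoter table. CCAAT, or ATTGG on the other strand, was present in 32 of 41 as well, against 41.1% of all genes, and stood at 2 or more places in 51.2% against 13.3%. Both kinds occurred in 1 window in 70.7% of these genes and in 8.61% of all. The letters were also present in neighbouring lists. Among 59 other mitotic genes the CHR letters were present in 61.0%, CCAAT in 59.3% and both in 37.3%. Among 42 DNA replication and S phase genes these shares were 26.2%, 59.5% and 19.0%, and among 20 G1 regulators the letters were present in 5, 12 and 3 genes. A match is a description of letters and not a shown binding site. The windows of 6 genes follow, with CHR and CCAAT letters in capitals. Mki67, Cdc25b and Espl1 are shown because they fell in the paired fit described below, Cdk1 and Ccnb2 because they are central to mitotic entry and showed no change past the threshold, and Spc25 because its GC libraries all lay above the controls.
Mki67, chr7:135716330-135716629, minus strand: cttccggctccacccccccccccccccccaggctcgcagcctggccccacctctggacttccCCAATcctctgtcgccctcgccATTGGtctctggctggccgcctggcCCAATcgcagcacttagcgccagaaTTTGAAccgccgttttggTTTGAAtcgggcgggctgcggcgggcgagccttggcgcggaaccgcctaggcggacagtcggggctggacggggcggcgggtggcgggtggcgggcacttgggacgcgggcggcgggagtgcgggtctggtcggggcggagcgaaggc
Cdc25b, chr2:131186698-131186997, plus strand: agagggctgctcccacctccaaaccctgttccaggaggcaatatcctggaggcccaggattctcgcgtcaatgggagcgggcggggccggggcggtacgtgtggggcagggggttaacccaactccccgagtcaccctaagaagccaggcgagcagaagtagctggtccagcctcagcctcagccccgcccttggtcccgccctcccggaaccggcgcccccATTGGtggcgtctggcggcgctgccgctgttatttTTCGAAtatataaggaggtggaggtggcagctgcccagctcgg
Espl1, chr15:102296043-102296342, plus strand: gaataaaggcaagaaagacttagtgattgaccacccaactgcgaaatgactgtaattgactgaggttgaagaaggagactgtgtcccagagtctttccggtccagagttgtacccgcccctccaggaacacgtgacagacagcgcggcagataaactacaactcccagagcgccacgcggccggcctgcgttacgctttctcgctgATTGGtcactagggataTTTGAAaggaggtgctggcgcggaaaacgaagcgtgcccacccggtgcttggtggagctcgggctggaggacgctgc
Cdk1, chr10:69352863-69353162, minus strand: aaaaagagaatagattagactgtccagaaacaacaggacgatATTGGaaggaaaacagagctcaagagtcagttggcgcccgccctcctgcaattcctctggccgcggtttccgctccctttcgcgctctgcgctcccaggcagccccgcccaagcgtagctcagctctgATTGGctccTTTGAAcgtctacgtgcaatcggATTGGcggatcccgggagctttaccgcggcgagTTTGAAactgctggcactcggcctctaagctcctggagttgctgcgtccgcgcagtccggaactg
Ccnb2, chr9:70421505-70421804, minus strand: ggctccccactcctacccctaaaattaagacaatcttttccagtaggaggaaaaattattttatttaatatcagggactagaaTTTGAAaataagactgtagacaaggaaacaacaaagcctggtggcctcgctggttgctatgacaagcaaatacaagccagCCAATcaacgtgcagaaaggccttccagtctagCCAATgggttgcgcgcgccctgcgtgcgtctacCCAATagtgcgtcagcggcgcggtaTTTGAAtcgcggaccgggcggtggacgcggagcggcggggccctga
Spc25, chr2:69206164-69206463, minus strand: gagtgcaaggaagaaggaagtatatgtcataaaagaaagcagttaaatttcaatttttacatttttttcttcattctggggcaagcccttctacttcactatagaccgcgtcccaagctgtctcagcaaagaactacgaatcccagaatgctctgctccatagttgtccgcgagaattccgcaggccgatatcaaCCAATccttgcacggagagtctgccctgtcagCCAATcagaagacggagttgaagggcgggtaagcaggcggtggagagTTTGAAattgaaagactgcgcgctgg
In the Espl1 window the CCAAT letters began at -44 and the CHR letters at -27, counted from 1 at the start base with no 0, and in Cdc25b they began at -28 and at 8. In Ccnb2 CCAAT stood at -87, -54 and -21 with CHR letters at -167 and 5, and in Spc25 at -55 and -23 with CHR letters at 25. Letters of both kinds thus stood in windows of genes that fell in the paired fit and of genes that did not pass. All windows shown held both kinds, which was not so for every member. The Ccnb1 window held CCAAT at 2 places and no CHR letters, and those of Pttg1, Mybl2, Birc5, Plk4, Mad2l1 and Nuf2 held neither.

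Levels are in FPKM, which scales reads to the length of a gene and the depth of its library, and fold changes are GC minus control on the log2(FPKM + 1) scale with their standard error (SE). Libraries held 15415852 to 17228983 recovered reads, and single members between 264 (Pttg1) and 13231 (Top2a) reads in a library. The treatment was seen in every GC library: Tsc22d3, a glucocorticoid-induced gene, averaged 28.4 ± 1.43 FPKM in the controls and 162 ± 14.4 FPKM with GC (SD, n = 3 each). The 10 bone lineage markers summed to 4007 to 4214 FPKM in the controls and 3449 to 3725 FPKM with GC, without overlap. Of them 8 passed the filter, and none passed the test. Col1a1 and Col1a2 were lower in every GC library than in every control, Sp7 was higher, and the groups overlapped for Spp1 and Sparc. Col1a1, at a mean of 1586 FPKM, held the largest part, while Alpl was listed at 0 in 5 of 6 libraries. Ibsp spanned 0.120 to 0.708 FPKM in the controls and 1.37 to 2.06 FPKM with GC, and Bglap 0.101 to 0.824 and 0.476 to 1.43 FPKM. Of the adipocyte markers 4 of 6 were at 0 in all libraries, and the endothelial markers summed to at most 0.211 FPKM. The skeletal muscle markers summed to 0.813 to 1.41 FPKM in the controls and 1.68 to 1.76 FPKM with GC, without overlap. The macrophage and osteoclast markers summed to 7.32 to 11.25 FPKM in the controls and 15.03 to 21.9 FPKM with GC. Nearly all of that was Lyz2, while Ptprc reached at most 0.00968 FPKM and Adgre1 was at 0. The chondrocyte markers summed to 20.4 to 21.5 and 12.95 to 17.7 FPKM, and Col2a1 passed the test as lower. The part of these markers in the results on mitotic genes was not tested. On the first principal component GC replicate 2 (-4.60) lay nearer to control replicate 1 (-7.56) than to GC replicate 1 (29.9) or GC replicate 3 (17.5). On the second component, with 26.5% of the variance against 41.3% for the first, GC replicate 2 (-14.5) lay nearer to GC replicate 3 (-18.2) than to control replicate 1 (22). Because of its place on the first component, results are also given without GC replicate 2 where they differ. It was singled out from these same values, so a lower p without it is no separate support. The fit without it called 10.5% of all tested genes, against 0.963% without GC replicate 1 and 0.136% without GC replicate 3.

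All 50 genes were expressed and passed the filter of at least 1 FPKM in at least 3 libraries. By control mean the highest were Cdc20 (94.5 FPKM), Top2a (86.8 FPKM), Ccna2 (85.3 FPKM) and Ncapd2 (75.03 FPKM). The lowest were Ttk (5.10 FPKM), Ndc80 (6.04 FPKM) and Kif4 (6.77 FPKM). Summed over the 50 genes the level was 1564, 1636 and 1690 FPKM in control 1 to 3 and 1385, 1463 and 1539 FPKM in GC 1 to 3. Each GC sum was below each control sum, whereas the sum over all tested genes spanned 294813 to 311036 FPKM in the controls and 285913 to 340667 FPKM with GC, so the groups overlapped there.

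RNA of the core mitotic engine, Cdk1 with the B-type cyclins Ccnb1 and Ccnb2, stayed within the spread of the replicates. Lower values with GC were seen in every library for Cdc25b, which activates CDK1, for the transcription factor Foxm1 and for Espl1, which separates sister chromatids, with group means of 27.7, 31.3 and 11.8 FPKM against 40.02, 45.1 and 16.5 FPKM in the controls. These genes and Mki67, the usual marker of cycling cells, passed the test when libraries were paired by replicate number. That paired fit called 8.0% of the members, all as lower, against 8.99% of all tested genes (5.0% as lower), so the members' count was near the background. Without pairing no single member passed when the 6 libraries were compared as 2 groups (limma-trend, 0 of 50 at an adjusted p under 0.05; 1.94% of 11729 tested genes passed, 1.08% as higher and 0.853% as lower). At an unadjusted p under 0.05 there were 12 of 50 members, 10 lower and 2 higher, and 19.3% of all tested genes had such a p, 11.5% lower and 7.87% higher. limma-voom on the recovered reads called 1 member, Cdc25b, as lower, where it called 3.3% of all genes and 1.66% as lower. The median log2 fold change of the members was -0.12, against -0.01 over all tested genes, and 35 of 50, or 70.0%, were negative (52.3% of all genes). The median depended on single libraries: without GC replicate 1 it was -0.043 with 31 negative (all genes, -0.02), without control replicate 3 it was -0.055 (all genes, -0.01), and without GC replicate 3 it was -0.20 (all genes, -0.02). In 12 of 50 members all 3 GC libraries lay below all 3 controls and in 1 of 50 above, while this held for 14.7% and 10.8% of all tested genes.

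**Figure D1:**
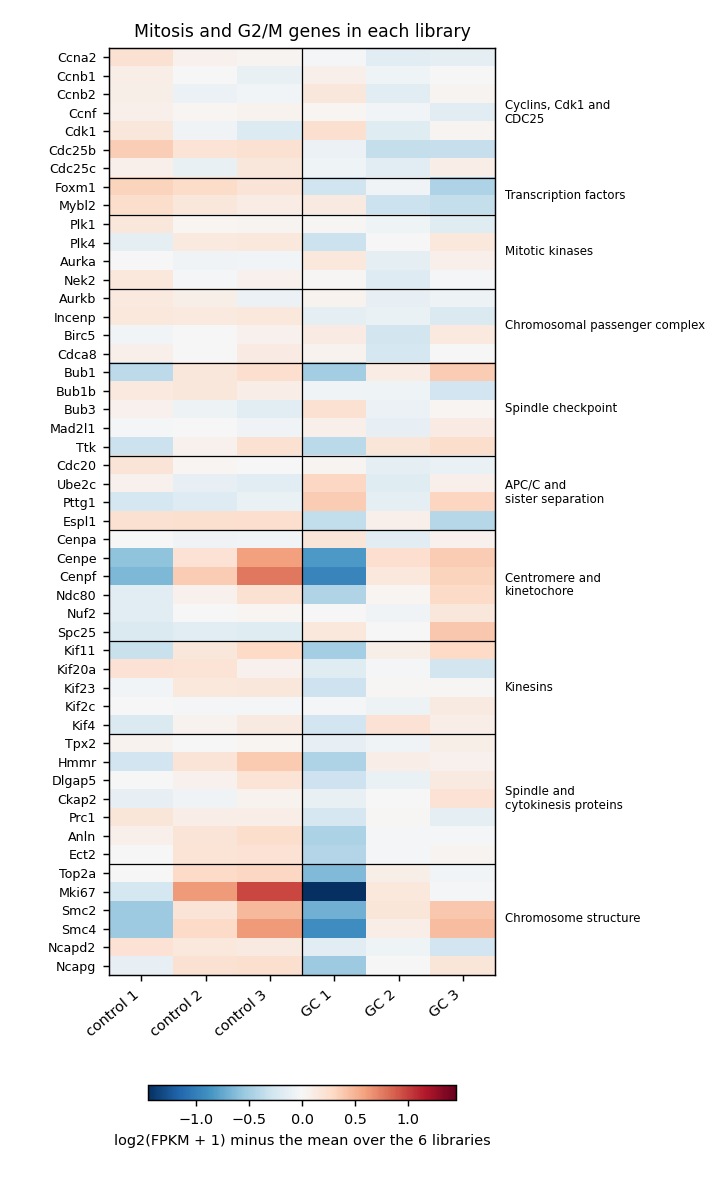
Heat map of log2(FPKM + 1) minus the mean over the 6 libraries for the 50 genes (rows, grouped by role) in the 3 control and 3 GC libraries (columns). Cenpe, Cenpf, Mki67, Smc2 and Smc4 were low in replicate 1 of both groups, and Foxm1 and Cdc25b were lower in each GC library than in each control.

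Libraries with the same replicate number deviated alike from their group means, so GC was also compared with control within each number. With the replicate number as a block 4 of 50 members fell and none rose (limma-trend, adjusted p under 0.05), or 8.0% of the members. The block called 8.99% of all tested genes, 5.0% as lower and 3.99% as higher, so the members' count was near the background. The 4 were Cdc25b, Foxm1, Mki67 and Espl1. GC was lower than control in all 3 pairs for 28 of 50 members and higher in all 3 for 3 of 50. Over all 11729 tested genes it was lower in all 3 for 3330 (28.4%) and higher for 2686 (22.9%). The lower share was thus larger among the members than over all genes and the higher share smaller, a difference that was not tested. By pair, 38, 44 and 30 of the 50 were lower in GC in replicates 1, 2 and 3, with median differences of -0.15, -0.12 and -0.07. Over all 11729 tested genes 5796, 6692 and 5894 were lower in GC in replicates 1, 2 and 3, with medians of 0.00, -0.04 and 0.00.

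**Figure D2:**
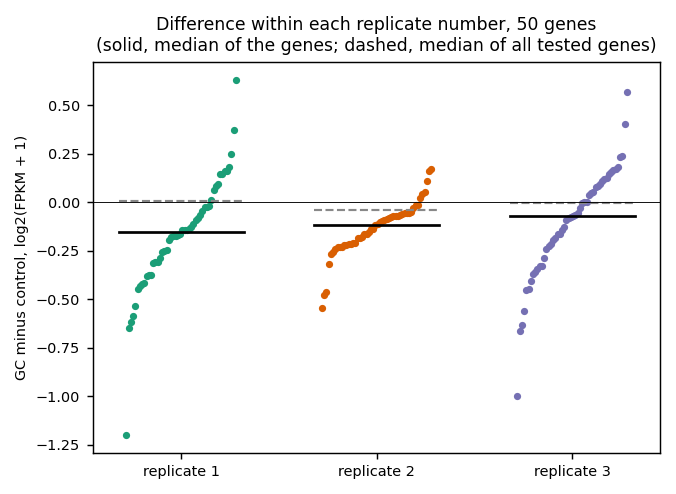
Difference between the GC library and the control of its replicate number for each of the 50 genes, in log2(FPKM + 1), sorted within each replicate. Solid bars mark the median of the 50 genes (-0.15, -0.12 and -0.07) and dashed bars that of all tested genes, and the spread among genes was narrowest in replicate 2.

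Among the cyclins, CDK1 and its phosphatases, the B-type cyclins and CDK1 itself differed by less than the replicate spread. Ccnb1, the activating subunit of the mitotic kinase, stood at 46.3, 43.6 and 40.04 FPKM in the controls and 45.5, 41.5 and 43.2 FPKM with GC. Cdk1, the kinase, stood at 62.0, 53.2 and 48.0 FPKM in the controls and 65.0, 48.9 and 56.8 FPKM with GC. In both genes the groups overlapped. Their 95% intervals for the log2 fold change ran from -0.24 to 0.25 for Ccnb1 and from -0.28 to 0.40 for Cdk1, with adjusted p-values by limma-trend of 0.989 and 0.870. Ccnb2, a second B-type cyclin, averaged 46.9 ± 2.99 FPKM in the controls and 47.9 ± 5.62 FPKM with GC.

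Cdc25b, the phosphatase that starts CDK1 activation at the centrosome, was the member with the lowest p. It stood at 42.8, 38.2 and 39.0 FPKM in the controls and 31.2, 25.9 and 26.2 FPKM with GC, so every GC library lay below every control. The log2 fold change was -0.52 ± 0.11 (SE) with a limma-trend adjusted p of 0.0677 (blocked, 0.0161). Without GC replicate 1, 2 or 3 the unblocked adjusted p was 0.0518, 0.0512 or 0.226. The pair differences were -0.45, -0.54 and -0.56. Cdc25b lies on the plus strand of chromosome 2 from 131186949 to 131198497 in mm10 (ENSMUSG00000027330.16). Cdc25c, its relative that acts with PLK1 at mitotic entry, averaged 17.4 ± 1.80 and 16.3 ± 1.64 FPKM and its groups overlapped. Ccna2, the cyclin of S phase and G2, stood at 92.0, 82.5 and 81.3 FPKM in the controls and 77.5, 70.2 and 71.4 FPKM with GC. Its groups did not overlap, with a limma-trend adjusted p of 0.338 and of 0.154 with the block. Ccnf, a substrate receptor of a ubiquitin ligase, averaged 31.0 ± 0.488 and 28.9 ± 1.87 FPKM.

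Both transcription factors of the group had negative fold changes. Foxm1, which drives the late wave of G2/M genes, stood at 47.2, 45.4 and 42.7 FPKM in the controls and 30.4, 36.2 and 27.2 FPKM with GC, with GC replicate 2 nearest to the controls. Its log2 fold change was -0.52 ± 0.13 with a limma-trend adjusted p of 0.0866 (blocked, 0.0256). Without GC replicate 1, 2 or 3 the unblocked adjusted p was 0.140, 0.0213 or 0.263. The pair differences were -0.62, -0.32 and -0.63. Mybl2, which activates the same genes earlier with the MuvB complex, averaged 8.96 ± 0.508 and 6.91 ± 1.55 FPKM. Its groups overlapped, the pair differences were -0.11, -0.48 and -0.45, and its limma-trend adjusted p was 0.241 (blocked, 0.0763). Foxm1 (ENSMUSG00000001517.14) lies on chromosome 6 from 128362967 to 128376146, and Mybl2 on chromosome 2.

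None of the 4 mitotic kinases passed, with or without the block. Plk1, which promotes entry, centrosome maturation and cytokinesis, averaged 53.8 ± 3.06 FPKM in the controls and 48.4 ± 3.43 FPKM with GC, and its groups did not overlap, with a limma-trend adjusted p of 0.506. Aurka, the spindle pole kinase, averaged 33.7 ± 0.720 and 35.3 ± 3.62 FPKM, and Plk4, which licenses centriole duplication, 16.5 ± 1.95 and 15.3 ± 2.63 FPKM. Nek2, a centrosome separation kinase, averaged 14.9 ± 0.977 and 13.6 ± 1.04 FPKM. 

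Of the 4 genes of the chromosomal passenger complex, which corrects wrong microtubule attachments, Incenp, Aurkb and Cdca8 had negative fold changes, while Birc5 was near 0 (-0.0041, and 0.04 with median scaling). None passed with or without the block. Incenp, its scaffold, stood at 60.8, 60.0 and 60.4 FPKM in the controls and 49.0, 50.9 and 46.9 FPKM with GC. The groups did not overlap and the controls differed by at most 1.01-fold, with a limma-trend adjusted p of 0.165 (blocked, 0.0727). Aurkb, the kinase of the complex, averaged 33.8 ± 2.74 and 31.4 ± 2.04 FPKM. Birc5, which encodes survivin, averaged 47.9 ± 1.80 and 48.2 ± 7.35 FPKM, with its lowest value of 39.7 FPKM in GC replicate 2 and higher values with GC in 2 of 3 pairs. Cdca8, which encodes borealin, averaged 16.7 ± 0.699 and 15.1 ± 1.78 FPKM.

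Of the 5 spindle checkpoint genes, 2 had negative fold changes and none passed with or without the block. Bub1b passed in the base composition and length correction with the block (adjusted p = 0.0486). Bub1b, which encodes the checkpoint protein BUBR1, averaged 30.0 ± 0.736 FPKM in the controls and 24.8 ± 2.18 FPKM with GC without overlap (limma-trend, adjusted p = 0.216, or 0.0843 with the block). Bub1, a checkpoint kinase, stood at 14.6, 21.7 and 23.0 FPKM in the controls and 13.3, 20.8 and 25.2 FPKM with GC. Both replicate 1 libraries were lowest, and the mean was 19.7 FPKM in both groups. Ttk, the kinase MPS1, showed the same order with 3.88, 5.36 and 6.06 FPKM in the controls and 3.61, 5.85 and 6.25 FPKM with GC. Bub3 and Mad2l1, which bind kinetochores and the APC/C activator, averaged 20.7 ± 1.64 and 14.9 ± 0.243 FPKM in the controls and 22.4 ± 2.54 and 15.5 ± 1.42 FPKM with GC.

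The protease of sister separation and its inhibitor had fold changes of opposite sign. Espl1 encodes separase, the protease that cuts cohesin, and Pttg1 encodes securin, its inhibitor. Espl1 stood at 16.4, 16.5 and 16.6 FPKM in the controls and 10.6, 14.6 and 10.1 FPKM with GC. Every GC library was below the controls, and GC replicate 2 was nearest to them. Its log2 fold change was -0.47 ± 0.14 with a limma-trend adjusted p of 0.130 (blocked, 0.0493). Without GC replicate 1, 2 or 3 the unblocked adjusted p was 0.231, 0.0150 or 0.365. With the base composition and length correction described below the fold change was -0.25, and the blocked adjusted p was then 0.0948. Pttg1 stood at 8.21, 8.69 and 9.35 FPKM in the controls and 13.3, 8.98 and 12.7 FPKM with GC. Here GC replicate 2 lay within the control range and the other GC libraries above it. The log2 fold change of Pttg1 was 0.36 ± 0.15 with a limma-trend adjusted p of 0.240 (blocked, 0.105), and without GC replicate 2 it rose by 0.52 with an adjusted p of 0.0260, in a fit that called 10.5% of all genes. With the correction its fold change was 0.215 (blocked adjusted p = 0.166). Cdc20, the APC/C activator, averaged 94.5 ± 6.82 and 85.7 ± 5.85 FPKM, and Ube2c, the ubiquitin-conjugating enzyme of the APC/C, averaged 51.0 ± 4.18 and 56.7 ± 9.56 FPKM. Espl1 (ENSMUSG00000058290.4) lies on chromosome 15 from 102296266 to 102324357 and Pttg1 (ENSMUSG00000020415.16) on chromosome 11 from 43420250 to 43426251.

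**Figure D3:**
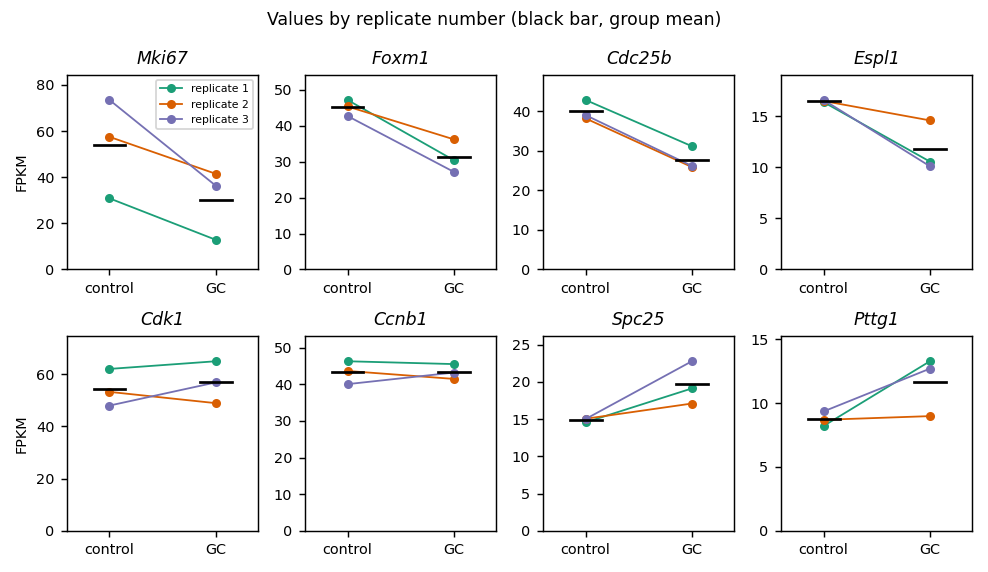
FPKM of 8 genes in each library, lines joining libraries that share a replicate number and black bars at the group means. Mki67, Foxm1, Cdc25b and Espl1 were lower in GC in all 3 pairs, Cdk1 and Ccnb1 went both ways, and Spc25 and Pttg1 were higher in GC in all 3 pairs.

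At the centromere and kinetochore, Spc25 was the 1 member of the 50 whose GC libraries all lay above the controls. Spc25 encodes a subunit of the NDC80 complex, which binds microtubules, and stood at 14.6, 15.1 and 15.02 FPKM in the controls and 19.1, 17.1 and 22.8 FPKM with GC. Its log2 fold change was 0.37 ± 0.12 with a limma-trend adjusted p of 0.156 (blocked, 0.0604). Without GC replicate 2 the unblocked adjusted p was 0.0408, in a fit that called 10.5% of all genes. With the correction the fold change was 0.24 (blocked adjusted p = 0.0743). The other subunits measured, Ndc80 and Nuf2, averaged 6.04 ± 0.900 and 10.9 ± 0.760 FPKM in the controls and 5.72 ± 1.61 and 11.6 ± 1.01 FPKM with GC, and their groups overlapped. Cenpa, the centromeric histone H3 variant, averaged 19.4 ± 0.359 and 20.3 ± 2.45 FPKM. Cenpf, a large protein of the outer kinetochore, stood at 4.397, 10.03 and 13.6 FPKM in the controls and 3.36, 8.52 and 9.67 FPKM with GC. The controls alone spanned 3.08-fold. In Cenpf the pair differences were -0.31, -0.21 and -0.45, and the adjusted p moved from 0.769 to 0.0656 with the block. Cenpe, a kinetochore motor, spanned 2.43-fold among the controls, from 8.40 to 20.4 FPKM.

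Of the kinesins, Kif20a, a motor of the central spindle, averaged 31.99 ± 1.88 FPKM in the controls and 25.6 ± 2.16 FPKM with GC without overlap (limma-trend, adjusted p = 0.170, or 0.0556 with the block). In the GENCODE M21 annotation 29.3% of its exon bases overlap Cdc23 on the opposite strand, and the strand setting is not given in the sources used here. Its exons cover 4338 bases there, while its reads were recovered at a length of 1898 bases. The overlap in the authors' annotation, and thus how many of its reads are uncertain, is not known. Opposite-strand overlap in GENCODE M21 was found for 12 members in all. Among them were Kif4, which shares 15.1% of its exon bases with Pdzd11 (mean 10.7 FPKM), Ccna2, 12.5% with Exosc9 (12.0 FPKM), and Cdc25b, 2.47% with Spef1 (1.78 FPKM). Kif11, the motor that separates spindle poles, stood at 31.9, 45.3 and 49.4 FPKM in the controls and 28.2, 43.0 and 49.5 FPKM with GC, so replicate 1 was lowest in both groups. Kif23, a subunit of centralspindlin, averaged 10.8 ± 0.929 and 9.47 ± 1.28 FPKM. Kif2c, a microtubule depolymerase, averaged 13.9 ± 0.178 and 14.2 ± 1.16 FPKM, and Kif4, a chromosome-bound motor, 6.77 ± 0.925 and 6.94 ± 1.34 FPKM.

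Fold changes were negative in 6 of the 7 spindle and cytokinesis genes (median -0.20), and no gene of this group passed with or without the block. Ect2 passed in the correction with the block (adjusted p = 0.0333). Anln, an actin-binding protein of the contractile ring, stood at 41.8, 45.6 and 47.7 FPKM in the controls and 28.6, 39.1 and 38.9 FPKM with GC without overlap. Its limma-trend adjusted p was 0.245 (blocked, 0.0666). Prc1, which bundles microtubules of the central spindle, averaged 24.1 ± 0.795 and 20.2 ± 1.92 FPKM without overlap. Ect2, which activates RhoA at the division plane, averaged 28.5 ± 2.29 and 23.7 ± 4.14 FPKM. Racgap1, which forms centralspindlin with KIF23 and is no member of the 50, was the 1 gene of 73 other mitotic genes that passed without the block. Its level dropped to 48.6 ± 3.799 FPKM from 75.2 ± 2.08 FPKM, with a log2 fold change of -0.62 ± 0.11 and a limma-trend adjusted p of 0.0372. Tpx2 and Hmmr, which act in spindle assembly, averaged 54.4 ± 0.769 and 13.3 ± 3.20 FPKM in the controls and 52.3 ± 3.74 and 11.4 ± 2.44 FPKM with GC. Dlgap5, a kinetochore fibre protein, averaged 10.2 ± 0.767 and 9.0 ± 1.501 FPKM, and Ckap2, a microtubule stabiliser, 42.7 ± 2.58 and 45.1 ± 5.10 FPKM.

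Genes of chromosome structure held the most negative fold change of the 50, that of Mki67, and the widest median spread between libraries of the 10 role groups. All 6 were negative and lower in GC in all 3 pairs, with a median of -0.29. Mki67, which coats mitotic chromosomes and is the usual marker of cycling cells, stood at 30.8, 57.5 and 73.5 FPKM in the controls and 12.9, 41.5 and 36.3 FPKM with GC. The groups overlapped because control replicate 1 lay below GC replicates 2 and 3, and each GC library was below the control of its number, with differences of -1.20, -0.46 and -0.997. In the fit without the block the size depended on GC replicate 1: without it the fold change was -0.38, with a limma-trend adjusted p of 0.641, and without GC replicate 2 it was -1.19, with one of 0.205. The log2 fold change of -0.89 had an SE of 0.49 without the block and 0.15 with it. The limma-trend adjusted p was 0.380 without and 0.0228 with the block. Mki67 (ENSMUSG00000031004.8) lies on the minus strand of chromosome 7 from 135689784 to 135716361.

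Top2a, the topoisomerase that untangles sister chromatids, stood at 75.8, 91.4 and 93.4 FPKM in the controls and 47.9, 80.2 and 73.3 FPKM with GC. Its limma-trend adjusted p was 0.337 (blocked, 0.0752). Smc4 and Smc2 encode the core subunits of condensin. Smc4 stood at 38.2, 67.8 and 86.0 FPKM in the controls and 29.2, 59.5 and 76.75 FPKM with GC, and its pair differences were -0.37, -0.19 and -0.16. Smc2 stood at 18.8, 31.7 and 38.7 FPKM in the controls and 16.6, 31.4 and 36.6 FPKM with GC. In both genes the 2 replicate 1 libraries were the lowest of the 6. Ncapd2, a further condensin subunit, stood at 77.5, 74.5 and 73.0 FPKM in the controls and 59.5, 63.9 and 54.9 FPKM with GC without overlap (limma-trend, adjusted p = 0.164, or 0.0656 with the block). Ncapd2 thus had little spread among controls where Smc2 and Smc4 had a control range of 2.06-fold and 2.25-fold. Ncapg, another, averaged 10.02 ± 1.45 and 8.54 ± 2.29 FPKM.

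**Figure D4:**
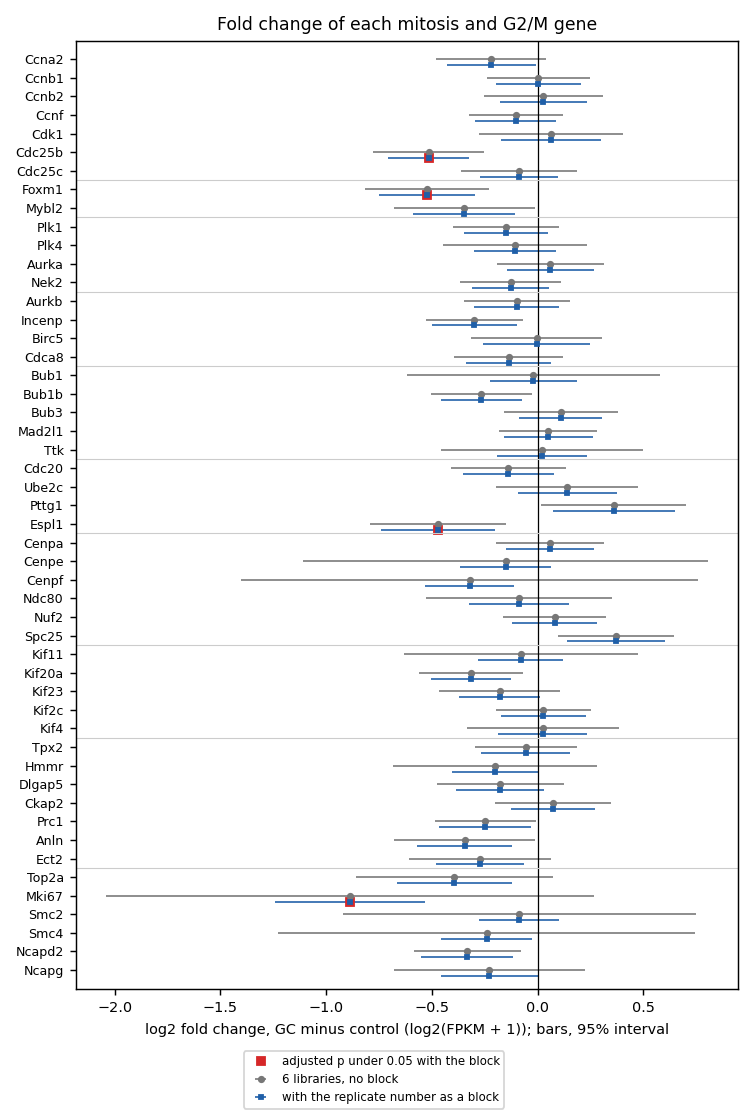
Log2 fold change of each gene, GC minus control, on the log2(FPKM + 1) scale with 95% intervals, without (grey circles) and with (blue squares) the replicate number as a block. Intervals of Mki67, Cenpf, Cenpe, Smc2 and Smc4 narrowed most with the block, and red squares mark Cdc25b, Foxm1, Espl1 and Mki67, whose adjusted p was under 0.05 with it.

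The spread between replicates followed the same genes in both groups. The offset of control replicate 1 from the mean of controls 2 and 3 and that of GC replicate 1 from GC 2 and 3 had a Pearson correlation of 0.939 and a Spearman correlation of 0.856 across the 50 genes. Over 11645 tested genes these were 0.510 and 0.528. These are descriptions across genes, which share their libraries and are not independent. The genes furthest down in replicate 1 of control were Cenpf (-1.23), Mki67 (-1.05), Cenpe (-0.996), Smc4 (-0.98) and Smc2 (-0.87), and in GC their offsets were -1.21, -1.52, -1.14, -1.18 and -0.99. By contrast Ube2c (0.19 and 0.35), Cdk1 (0.29 and 0.30) and Mybl2 (0.12 and 0.47) were higher in replicate 1 of both groups. The mitotic genes were therefore not uniformly lower in replicate 1.

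The offset went with base composition and length of the transcripts. Across the 50 genes its Spearman correlation with the share of guanine and cytosine bases in the longest transcript was 0.669 in control and 0.645 in GC, and with log2 exon length -0.516 and -0.595. Over 11645 tested genes these were 0.291 and 0.384 for base composition and -0.144 and -0.400 for length. In the 25 genes with the lowest share (34.8% to 46.6%) control replicate 1 was the lowest control in 20 and GC replicate 1 the lowest GC library in 18. In the 25 with the highest (47.4% to 56.3%) these numbers were 4 and 3. The median fold change was -0.11 in the first 25 and -0.13 in the second. Across the 50 genes the fold change had a Spearman correlation of -0.385 with log2 exon length and -0.199 with base composition, against -0.297 and -0.160 over all tested genes. When the trend of each library over base composition and length was subtracted, an alternative chosen after seeing the data, 1 member, Cdc25b, fell without the block (limma-trend, adjusted p = 0.0111), while 4.71% of all genes were called, 2.19% as lower and 2.52% as higher. In that correction 8 fell with it, or 16.0% of the members, against 5.23% of all genes called lower and 5.38% called higher, 10.6% in all. They were Cdc25b, Mki67, Foxm1, Kif20a, Ect2, Smc4, Ccna2 and Bub1b, while Espl1 no longer passed (adjusted p = 0.0948).

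**Figure D5:**
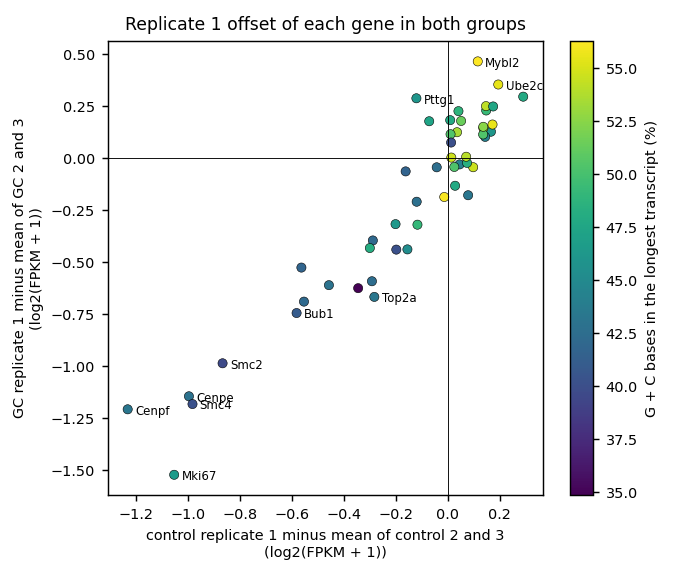
Offset of replicate 1 from the mean of the other replicates, in log2(FPKM + 1), in control (x axis) and GC (y axis) for the 50 genes, coloured by the share of guanine and cytosine bases in the longest transcript. The genes furthest down in replicate 1 of control were also furthest down in GC: Mki67, Cenpf, Cenpe, Smc4 and Smc2.

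Neighbouring cell cycle genes were read from the same fit. Fold changes were negative in 38 of 73 other mitotic genes (52.1%, median -0.03), against 52.3% of all tested genes. Racgap1 was the 1 that passed without the block, or 1.37%, against 1.94% of all genes. With the block 6 fell and 1 rose, or 9.59%, against 8.99% of all genes. Of 52 DNA replication and S phase genes 38 (73.1%) were negative, with a median of -0.12, and none passed (limma-trend). An unadjusted p under 0.05 was found for 14 of the 52, against 19.3% of all genes. limma-voom called 2 of them, or 3.85%, against 3.3% of all genes. With the block 7 fell, or 13.5%, against 5.0% of all genes called lower. Of the 2 highest, Pcna, the sliding clamp of DNA polymerase, averaged 140 ± 11.2 FPKM in the controls and 157 ± 25.6 FPKM with GC, and Mcm3, a subunit of the replicative helicase, 58.9 ± 4.52 and 56.8 ± 5.96 FPKM. Of 26 G1 regulators and CDK inhibitors 23 were tested, and Rgcc and Btg2 rose, or 8.7%, against 1.08% of all genes called higher. Rgcc, a regulator of CDK1 activity, went from 6.74 ± 0.622 to 31.9 ± 3.23 FPKM and Btg2, an antiproliferative factor, from 9.26 ± 0.479 to 16.5 ± 0.596 FPKM, with adjusted p-values by limma-trend of 0.000390 and 0.0136. With the block 3 of the 23 rose and none fell, or 13.0%, against 3.99% of all genes called higher. Whether the mitotic genes differed from these lists was not tested.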

How the data were processed

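Messenger RNA of 3 control and 3 GC libraries of MC3T3-E1 cells was sequenced, and groups and replicate numbers come from the sample titles. Total RNA was extracted with TRIzol and libraries made with the NEBNext Ultra RNA kit, per the labels' protocols. The submitters' processing notes list HISAT2, HTSeq, DESeq2 and build mm10. The sources used here give no versions, annotation release or strand setting. The authors deposited FPKM values per gene, with no unit in the header. Times exon length in GENCODE M21 and a depth per library, 25620 of 26481 rows (96.7%) were whole within 0.0001 reads in all libraries, which gave recovered reads. That depth was not the recovered total. Recovered reads exceeded it in replicate 1 of both groups (control, 16346521 against 16076261, and GC, 17228983 against 16984360). They lay below it in the other libraries, and the effect of this on the results was not tested. For 637 further tested rows, Ccnf, Cdc25c, Incenp, Kif11 and Kif20a among them, a length was found that made all values whole. The base composition and length correction and the correlations with length used the GENCODE M21 exon length for these members. Of 203 rows sharing a name the highest was kept.

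limma 3.58.1 (R 4.3.3; trend and robust options) was fitted on log2(FPKM + 1) over 11729 rows that reached 1 FPKM in 3 or more libraries. Tests were two-sided, and p-values were Benjamini-Hochberg adjusted over all of these rows, with a threshold of 0.05. They set the difference between the groups against the spread between these libraries. The deviations of same-numbered libraries from their group means correlated at 0.511, 0.248 and 0.383 across genes, each over 0.1, so blocked values are given where they change a call. The labels call the replicates biological but say nothing of shared cultures. Alternatives were the block, a pseudocount of 0.1, no filter, median scaling, quantile normalization, limma-voom on recovered reads, leaving out each library, and a base composition and length correction. Scripts were tested on simulated reads drawn without replicate, base composition or length effects, so that test does not bear on these effects. The members and lists were chosen with earlier results of these data known. Named are all members and, in each neighbouring list, up to 3 genes that passed, or the 2 of highest mean in a list with no call. Tsc22d3, Col1a1, Col1a2, Sp7, Spp1, Sparc, Col2a1, Lyz2, Ptprc, Adgre1, Alpl, Ibsp, Bglap and the overlapping genes were chosen after their values were seen.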

Additional observations from a re-analysis of the deposited data

How the results depend on the processing

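Each count was recomputed under 14 alternatives, 2 of them (the base composition and length corrections) chosen after seeing the data, and the cause of the shifts was not tested. Over all tested genes 227 passed, against 1054 with the replicate block, 17 without a filter, 379 with quantile normalization, 387 with limma-voom, 549 with the correction and 1236 with correction and block. Of the 50 members 0 were called lower, against 4 with the block, 1 each with quantile normalization, limma-voom and the correction, and 8 with correction and block. Other mitotic genes past the threshold numbered 1, against 7 with the block, 0 without a filter, 4 with quantile normalization, and 3 and 5 with the correction without and with the block. S phase genes numbered 0, against 7 with the block, 3 with quantile normalization, 2 with limma-voom, and 4 and 9 with the correction. G1 regulators numbered 2, against 1 without a filter and 4 with correction and block. Leaving out 1 library in turn gave 16 (without GC replicate 3) to 1227 (without GC replicate 2) genes, 0 to 2 members lower, 0 to 2 members higher, and a members' median of -0.20 (without GC replicate 3) to -0.043 (without GC replicate 1). It gave 0 to 6 other mitotic, 0 to 5 S phase and 1 to 3 G1 genes. Of 700 pairs of a member and an alternative 19 newly passed, and in 48, none of them called, the sign changed. The block changed no other call among the members. Every member had 264 or more recovered reads in each library, and precision is that of 3 libraries a group.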
